A study of Mus musculus with 6 samples.

Results

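The genes described here are 32 genes of DNA damage signalling and repair, followed in mouse blastocysts grown in vitro or in vivo. They were chosen by name for their known roles in checkpoint signalling, break repair, the Fanconi anaemia pathway, mismatch repair and excision repair. All 32 were among the 49993 genes of the deposited count table, and all 32 passed the filter on low counts that left 14301 genes for testing. RNA was sequenced from 3 in vitro and 3 in vivo libraries. In vitro embryos were zygotes taken from the oviducts 19 to 21 h after human chorionic gonadotrophin (hCG) and cultured to the blastocyst stage in KSOM, a potassium-enriched medium, at 37 °C in 5% CO2. In vivo embryos were blastocysts flushed from the uterus on day 3.5. The mothers of both groups had been superovulated and had mated naturally, with pregnant mare serum gonadotrophin (10 IU) given 48 h before the hCG (10 IU). The labels give no strain, genotype or maternal age, do not say after how long in culture the blastocysts were frozen, and do not say whether each library had a mother of its own. The p-values therefore measure the spread between these libraries, which may be partly technical.

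Cells that meet broken DNA mark the chromatin around the break, halt the cell cycle through the kinases ATM and ATR, and then either join the ends directly or copy the lost sequence from the sister chromatid by homologous recombination. Crosslinked strands are handled by the Fanconi anaemia proteins, mispaired bases by mismatch repair, bulky lesions by nucleotide excision repair, and oxidised, deaminated or lost bases by base excision repair. The blastocyst is a rapidly dividing embryo whose cells copy their DNA at every cycle.

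Libraries of the same group differed from each other. Totals were 6918288, 12735551 and 9212405 counts in vitro and 9174789, 10240704 and 17643429 counts in vivo. CPM are counts scaled to the library total after its correction by the trimmed mean of M values (TMM). Across the 32 genes, the Spearman correlation of log2 CPM (prior count of 2) was 0.938 between in vivo replicates 1 and 2. It was 0.794 and 0.756 between in vivo replicate 3 and these 2 libraries. In vitro replicate 2 reached 0.922 with in vivo replicate 1. Over all tested genes the same correlations were 0.942, 0.786, 0.793 and 0.873. The 18S ribosomal RNA gene took 36.1%, 35.8% and 40.4% of the counts in vitro and 16.7%, 22.2% and 41.7% in vivo. The labels name 1 inner cell mass per library and embryonic stem cells as the cell type, while the design text speaks of blastocysts, and markers of the trophectoderm, the outer layer of the blastocyst, were present in every library, at a sum over 8 genes of 893 to 1554 CPM in vitro and 562 to 1189 CPM in vivo. Markers of the epiblast and inner cell mass summed to 402 to 899 CPM in vitro and 526 to 660 CPM in vivo over 8 genes, and those of the primitive endoderm, the other inner cell mass lineage, to 393 to 944 CPM in vitro and 211 to 569 CPM in vivo. Of 8 markers of cumulus and granulosa cells, 6 were at 0 counts in all libraries, among them Fshr, Cyp19a1 and Amh, and the sum of the list was at most 1.05 CPM in vitro and 0 CPM in vivo. Markers of oocytes summed to 0.176 to 4.56 CPM in vitro and 3.14 to 99.9 CPM in vivo (7 genes, Bmp15 at 0 in all libraries). The highest value was in in vivo replicate 3, where Mos alone was at 95.3 CPM and Gdf9, Zp1 and Oosp1 were at 0. Zp3 was at 0, 1.40 and 0 CPM in vitro and at 2.04, 3.69 and 4.53 CPM in vivo (edgeR adjusted p = 0.617). Zp2 was at 0.176, 0.808 and 0.654 CPM in vitro and at 0, 0 and 0.0719 CPM in vivo. Markers of uterine and oviduct epithelium summed to 0.131 to 5.07 CPM in vitro and 5.61 to 15.5 CPM in vivo (7 genes, with Ltf, Wnt7a, Lcn2 and Pgr at 0), of which Muc1 made up 0.176, 2.65 and 0.131 CPM in vitro and 10.4, 4.65 and 15.5 CPM in vivo, and those of blood cells to 0 to 1.32 CPM in vitro and 0.791 to 3.22 CPM in vivo (6 genes, with Ptprc, Hbb-bs, Hbb-bt and Lyz2 at 0). Of the lineage markers tested, 8 of 8 in primitive endoderm, 6 of 7 in trophectoderm and 3 of 8 in epiblast and inner cell mass had positive log2 fold changes (in vitro minus in vivo). Over all tested genes 49.8% were positive. In 5 of the 8 primitive endoderm markers (62.5%) every in vitro library was higher than every in vivo library, against 9.27% of all tested genes. Of the 8 markers edgeR called 0 and DESeq2 3 (Sox7, Foxa2 and Lama1, against 2.82% of all genes). limma-voom called 2 (Sox7 and Lama1, against 0.713%). Lama1 had 1265, 1620 and 391 counts in vitro and 197, 56 and 334 counts in vivo. Sox7 had 112, 425 and 32 counts in vitro and 0, 0 and 1 counts in vivo, and Foxa2 had 196, 54 and 22 counts in vitro and 0 counts in each in vivo library. In such samples, fewer cells of a type and less RNA per cell cannot be told apart, and the part of these cell types and of ribosomal RNA in the results was not tested.

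None of the 32 genes passed the test between in vitro and in vivo blastocysts, the quasi-likelihood test of edgeR, with p-values adjusted over all tested genes by the Benjamini-Hochberg method (smallest adjusted p = 0.415, for H2ax). The same test called 0% of all genes. At an unadjusted p below 0.05, 4 of the 32 genes (12.5%) stood out against 10.2% of all tested genes: Rnf168, Brca1 and Fanci were higher in vitro (3 genes, against 5.11% of all tested genes) and H2ax was lower in vitro (against 5.08%). In 7 of the 32 genes (21.9%) the in vitro and in vivo libraries did not overlap, against 19.3% of all tested genes. Rnf168, Brca1, Bard1, Fancd2 and Fanci lay higher in every in vitro library (against 9.27% of all tested genes) and Apex1 and Polb lower (against 10%). Both shares are near those of all genes and so are no result about the repair genes. With scaling by library totals alone, which moves the median gene by −0.32 on the log2 scale, the directions of these 7 genes stay the same but only Bard1 and Fanci keep groups that do not overlap. Of the log2 fold changes (in vitro minus in vivo), 13 were positive and 19 negative with a median of −0.12, against 49.8% positive and a median of −0.0058 over all tested genes. DESeq2 and limma-voom called none of the 32 genes either, against 2.82% and 0.713% of all genes; their smallest adjusted p-values were 0.0944 for Fanci with DESeq2 and 0.0565 for H2ax with limma-voom.

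**Figure D1:**
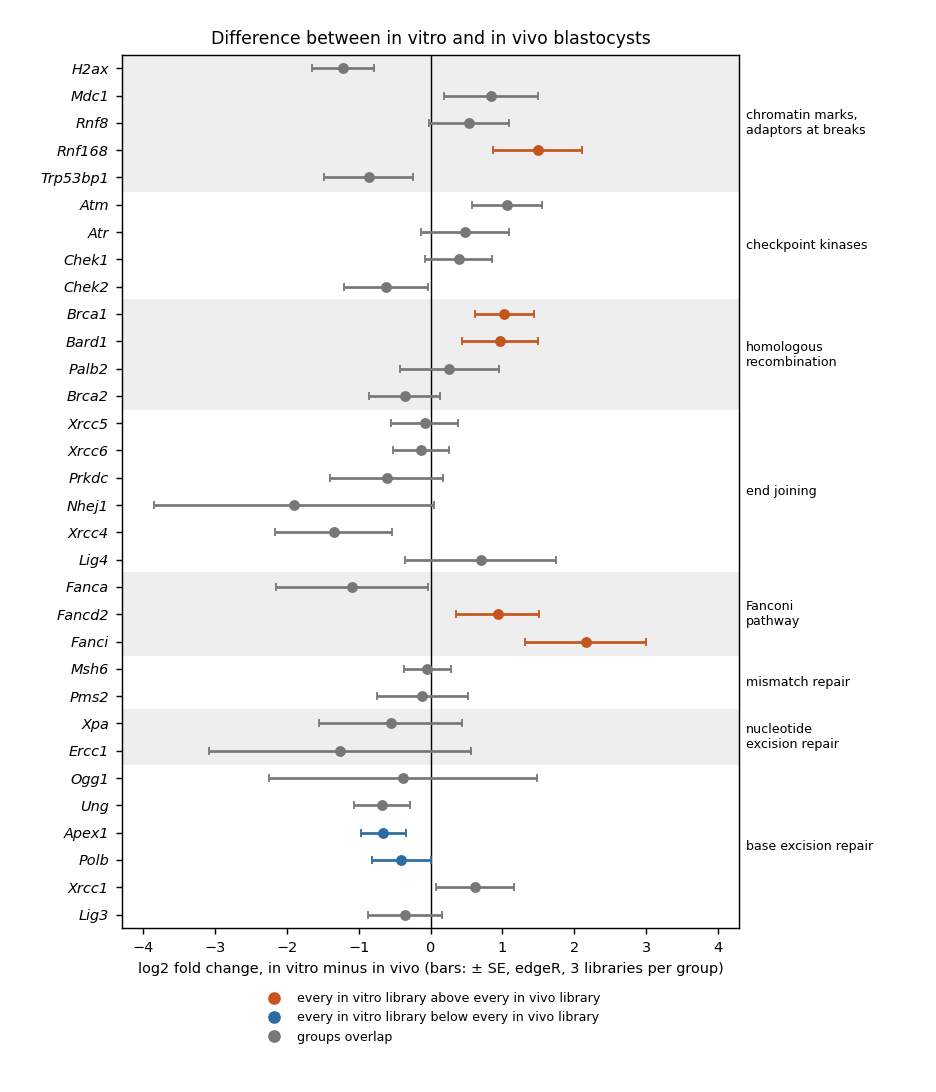
Log2 fold change of each gene, in vitro minus in vivo (x axis), with the standard error from edgeR over 3 libraries per group, ordered by role. The 5 orange genes lay above and the 2 blue genes below in every in vitro library, and the widest bars belong to Nhej1, Ogg1 and Ercc1, which had libraries with 0 counts.

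The promoters of Rnf168, Brca1 and Bard1 are shown because their groups did not overlap and because they stand for ubiquitin signalling and recombination. The sequences come from RefSeq on GRCm38.p6, are read in the direction of the gene and are limited to the bases within 250 bases before a RefSeq start that lie in no exon of GENCODE or of the count table. They lie at chr16:32277211-32277458 (plus strand), chr11:101551956-101552106 (minus strand) and chr1:71103147-71103222 (minus strand). Capitals mark an ETS word (CCGGAAGT), a CCAAT box (CCAAT) or an E2F word.
Rnf168: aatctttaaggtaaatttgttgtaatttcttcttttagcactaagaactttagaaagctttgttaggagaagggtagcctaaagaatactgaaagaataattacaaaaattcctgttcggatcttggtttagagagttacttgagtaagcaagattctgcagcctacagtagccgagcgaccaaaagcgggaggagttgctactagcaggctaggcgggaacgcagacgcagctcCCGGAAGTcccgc
Brca1: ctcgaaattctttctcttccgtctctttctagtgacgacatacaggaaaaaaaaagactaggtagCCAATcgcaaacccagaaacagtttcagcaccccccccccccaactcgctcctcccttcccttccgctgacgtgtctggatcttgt
Bard1: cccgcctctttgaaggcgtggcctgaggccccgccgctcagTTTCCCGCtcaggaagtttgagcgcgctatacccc
The Rnf168 stretch holds 1 ETS word, that of Brca1 1 CCAAT box and that of Bard1 1 E2F word. The Bard1 stretch also holds 1 TTTGAA, a cell cycle word counted below, which is left in lower case. Windows of 250 bases were matched by symbol for 28 of the 32 genes (29 windows). The start site that a window ends at was the outermost start of the gene in the count table for 12 windows and another start for 17, Bard1 among them. A match is a description of letters and not a binding site.

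The E2F words TTTCCCGC, TTTCGCGC, TTTGCCGC and TTTGGCGC are forms of the site bound by the E2F factors, regulators of entry into S phase, and were searched on both strands. They occurred in 5 of the 29 windows (17.2%), against 2.35% of 21263 windows of protein-coding genes. These 5 genes were Bard1, Mdc1, Chek2, Brca2 and Xrcc6. In Chek2, Brca2 and Xrcc6 the word lies downstream of the outermost start of the gene and in an annotated exon, and is not printed. The word of Mdc1, in capitals with up to 10 bases on either side, lies before the gene at chr17:35841472-35841494 (plus strand).
Mdc1: cttcagcctgTTTCCCGCcggta
All 5 carry TTTCCCGC or its reverse complement GCGGGAAA. The ETS word was in 13.8% of member windows and 3.79% of protein-coding windows, the GC box (GGGCGG) in 65.5% and 42.6%, the CCAAT box in 44.8% and 35.4%, and the cell cycle words TTTGAA and TTCGAA in 13.8% and 15.9%. Member windows held a median of 15 CpG (C followed by G), against 10 in protein-coding windows, at the same median GC content of 55.6%. The E2F, ETS, GC box and NRF1 words all hold a CG, and the part of the CpG content in these shares was not tested. The 5 genes with an E2F word did not share a direction: Bard1 and Mdc1 had positive log2 fold changes (0.96 and 0.84) and Chek2, Brca2 and Xrcc6 negative ones (−0.62, −0.36 and −0.13).

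H2ax encodes the histone variant that is phosphorylated around breaks (chr9:44334715-44336077, plus strand, protein-coding). It was at 62.0, 55.4 and 82.2 CPM in vitro and at 208, 187 and 70.3 CPM in vivo. In vivo replicate 3 thus lay inside the in vitro range, and the groups overlapped because of this library. The log2 fold change was −1.22 ± 0.43 (SE, n = 3 each, edgeR adjusted p = 0.415), and −1.57 without in vivo replicate 3. In vivo replicates 1 and 2 were also the libraries with the lowest share of 18S ribosomal RNA (16.7% and 22.2%), and the part of that difference in the result was not tested. Rnf168, a ubiquitin ligase that modifies histone H2A next to breaks (chr16:32277461-32301442, plus strand), was at 31.8, 30.5 and 17.3 CPM in vitro and at 12.8, 12.1 and 3.38 CPM in vivo. Every in vitro library was above every in vivo library, with a log2 fold change of 1.49 ± 0.62 (SE, edgeR adjusted p = 0.464). Rnf8, the ligase that acts before it, was at 20.5, 13.9 and 10.6 CPM in vitro and at 11.9, 10.3 and 8.77 CPM in vivo, so its groups overlapped. Of the exon bases of Rnf8, 78.4% are shared with the predicted gene Gm28043 on the same strand, so its level is uncertain.

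Mdc1, which binds phosphorylated H2AX, was at 48.1, 18.7 and 19.6 CPM in vitro and at 10.0, 7.86 and 30.2 CPM in vivo (log2 fold change 0.84 ± 0.65, edgeR adjusted p = 0.705). Here in vivo replicate 3 was the high in vivo library, where H2ax was low. Mdc1 is listed on chromosome 17 and on 2 further contigs in the count table, so its level is uncertain. Trp53bp1, whose protein 53BP1 shields ends from resection, was at 15.5, 7.05 and 4.84 CPM in vitro and at 14.3, 15.4 and 19.8 CPM in vivo (log2 fold change −0.86 ± 0.62, edgeR adjusted p = 0.678). In vitro replicate 1 alone reached the in vivo range. Of the exon bases of Trp53bp1, 20% overlap the antisense gene Tubgcp4, and reads of the 2 genes cannot be told apart without strand.

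Among the checkpoint kinases, no gene separated the groups. Atm, the kinase that responds to broken ends, had the smallest p of the 4, at 37.6, 20.4 and 46.5 CPM in vitro and at 22.1, 16.8 and 11.0 CPM in vivo (log2 fold change 1.07 ± 0.49, edgeR adjusted p = 0.501). In vitro replicate 2 lay inside the in vivo range and the other in vitro libraries above it. Atr, the kinase that senses single-stranded DNA, averaged 14.7 ± 6.66 CPM in vitro and 10.5 ± 4.02 CPM in vivo (SD, n = 3 each). Chek1, the kinase that acts after ATR, averaged 44.2 ± 16.5 CPM in vitro and 33.7 ± 14.3 CPM in vivo, and Chek2, the kinase that acts after ATM, 11.3 ± 4.42 CPM in vitro and 17.4 ± 7.49 CPM in vivo. The log2 fold changes of these 3 genes were 0.48 ± 0.61, 0.39 ± 0.47 and −0.62 ± 0.59 (SE), and their groups overlapped. That of Chek1 was −0.048 with scaling by library totals alone and −0.038 with limma-voom.

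Among the recombination genes, Brca1 and Bard1 separated the groups and Palb2 and Brca2 did not. Brca1 (chr11:101488761-101551955, minus strand) encodes a ubiquitin ligase that directs breaks to homologous recombination. It was at 39.3, 35.3 and 28.0 CPM in vitro and at 17.2, 19.5 and 13.7 CPM in vivo. Every in vitro library was higher than every in vivo library, with a log2 fold change of 1.03 ± 0.41 (SE, edgeR adjusted p = 0.452). Bard1 (chr1:71027535-71103141, minus strand), the obligate partner of Brca1, was at 18.8, 16.4 and 17.3 CPM in vitro and at 9.33, 11.0 and 6.54 CPM in vivo. It also showed no overlap, with a log2 fold change of 0.96 ± 0.53 (SE, edgeR adjusted p = 0.578). Within groups these 2 genes varied little, and 4.08% of tested genes had a smaller within-group standard deviation of log2 CPM than Brca1 and 5.35% a smaller one than Bard1. Palb2, which links BRCA1 to BRCA2, averaged 8.83 ± 2.91 CPM in vitro and 7.33 ± 2.66 CPM in vivo (log2 fold change 0.26 ± 0.68, and −0.018 with library totals alone). Brca2, which acts in strand exchange during recombination, was at 81.3, 57.8 and 32.8 CPM in vitro and at 55.3, 43.4 and 122 CPM in vivo, with in vivo replicate 3 the highest library. Its log2 fold change of −0.36 ± 0.49 was 0.22 without that library.

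Ends that are joined directly are first held by the Ku proteins. Xrcc6, which encodes Ku70, was at 28.1, 22.8 and 23.8 CPM in vitro and at 30.9, 22.2 and 28.8 CPM in vivo (log2 fold change −0.13 ± 0.39). Xrcc5, which encodes Ku80, averaged 19.1 ± 3.28 CPM in vitro and 20.1 ± 6.84 CPM in vivo (log2 fold change −0.08 ± 0.47). The groups overlapped for both, and 2.2% of tested genes had a smaller within-group standard deviation than Xrcc6, the lowest share of the 32 genes. Of the other 4 end joining genes, Xrcc4, the scaffold of ligase IV, had the smallest p, at 2.46, 4.63 and 4.18 CPM in vitro and at 3.92, 9.54 and 15.4 CPM in vivo (log2 fold change −1.35 ± 0.82, edgeR adjusted p = 0.613). In vivo replicate 1 lay inside its in vitro range. Prkdc, the catalytic subunit of the DNA-dependent kinase, averaged 9.41 ± 6.62 CPM in vitro and 14.3 ± 10.2 CPM in vivo, and Lig4, the ligase, 6.37 ± 4.35 CPM in vitro and 3.91 ± 4.03 CPM in vivo. Nhej1, which bridges the ends with XRCC4, had 0, 32 and 2 counts in vitro and 29, 99 and 0 counts in vivo. A count of 0 allows up to 0.527 CPM in in vitro replicate 1 and 0.216 CPM in in vivo replicate 3 (3 counts, counting error only).

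**Figure D2:**
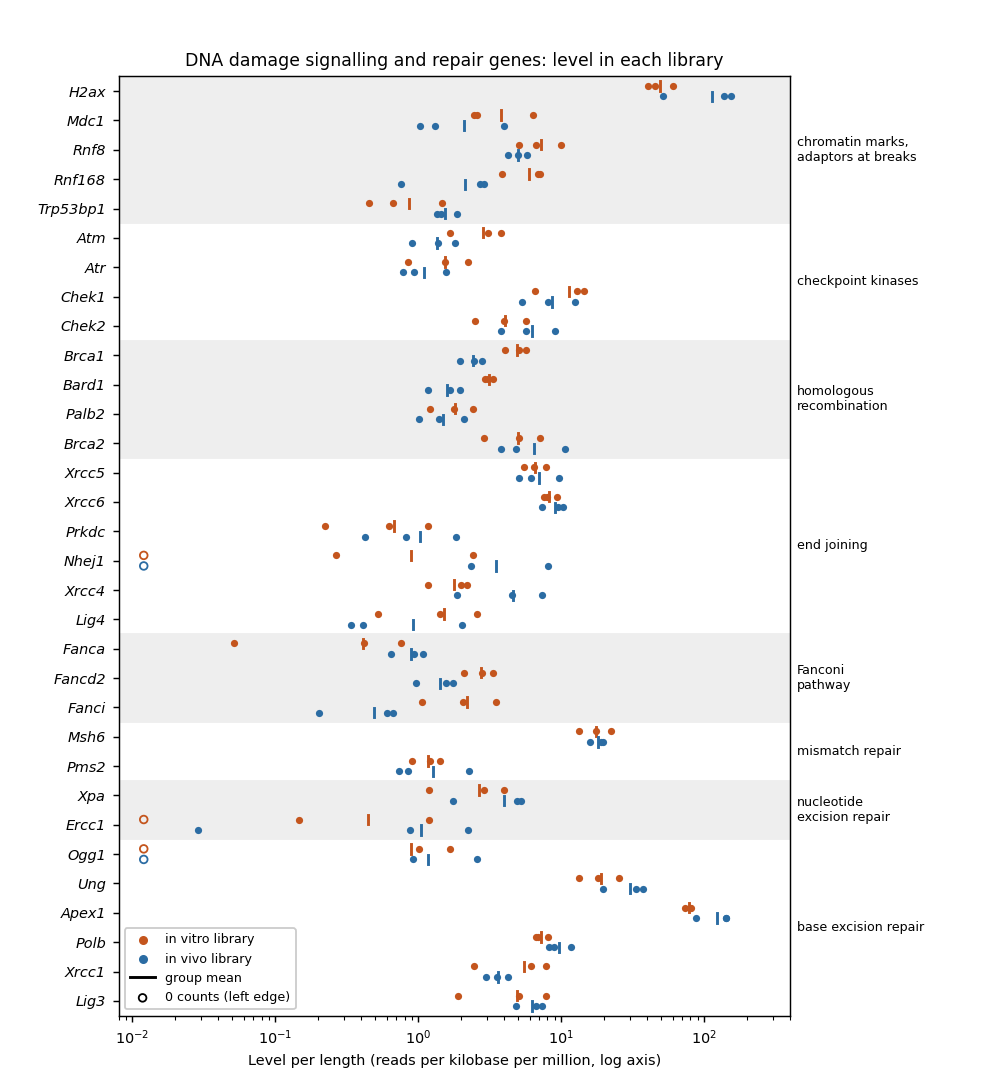
Level of each gene in RPKM, scaled to exon length and TMM-scaled library total, in each library (log axis). In vitro libraries are drawn above in vivo libraries, with a bar at each group mean. Apex1 and H2ax stand above all other genes in both groups, and open circles at the left edge mark the libraries with 0 counts of Nhej1, Ercc1 or Ogg1.

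The Fanconi anaemia genes held the largest positive difference. Fanci (chr7:79392312-79450266, plus strand), a part of the clamp that is fastened around crosslinked DNA, was at 10.9, 5.66 and 18.4 CPM in vitro and at 3.53, 3.21 and 1.08 CPM in vivo. Every in vitro library was higher, with a log2 fold change of 2.16 ± 0.85 (SE, edgeR adjusted p = 0.449), the largest among the 32 genes. The counts behind it were low (62, 77 and 141 in vitro, 45, 40 and 15 in vivo), and 12.5% of its exon bases overlap the antisense gene Polg. Fancd2, its partner in the clamp (chr6:113531640-113597020, plus strand), was at 18.4, 15.6 and 11.5 CPM in vitro and at 9.65, 8.74 and 5.39 CPM in vivo. It showed no overlap either, with a log2 fold change of 0.94 ± 0.58 (SE, edgeR adjusted p = 0.619). Fanca, a subunit of the core complex that modifies the clamp, had a negative log2 fold change, at 0.351, 5.22 and 2.88 CPM in vitro and at 6.43, 7.37 and 4.46 CPM in vivo. Its groups overlapped through in vitro replicate 2, the log2 fold change was −1.09 ± 1.06 (SE), and 22% of its exon bases overlap the antisense gene Zfp276.

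The groups overlapped for both mismatch repair genes. Msh6, which recognises mispaired bases, was at 94.1, 73.9 and 56.5 CPM in vitro and at 67.6, 83.8 and 80.7 CPM in vivo (log2 fold change −0.05 ± 0.33). All 3 in vivo libraries lay inside the in vitro range. Pms2, a nuclease subunit of mismatch repair, was at 9.31, 12.6 and 14.8 CPM in vitro and at 8.78, 7.62 and 23.3 CPM in vivo (log2 fold change −0.11 ± 0.63, edgeR adjusted p = 0.969). In vivo replicate 3 was its highest library.

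In nucleotide excision repair, both genes had low counts. Ercc1, a subunit of the nuclease that cuts out the damaged strand, had 17, 5 and 0 counts in vitro and 28, 70 and 1 counts in vivo (log2 fold change −1.26 ± 1.82, edgeR adjusted p = 0.862). Xpa, the scaffold of the incision complex, averaged 3.17 ± 1.66 CPM in vitro and 4.69 ± 2.26 CPM in vivo. Scaled to exon length, Xpa ranked 20 of the 32 genes in vitro and 14 in vivo, and Ercc1 31 in vitro and 28 in vivo. The groups overlapped for both.

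Of the 6 base excision genes, Apex1 and Polb separated the groups, both lower in vitro. Apex1 (chr14:50924949-50927188, plus strand), the endonuclease that cuts at lost bases, was at 106, 105 and 95.3 CPM in vitro and at 185, 184 and 114 CPM in vivo. The in vitro libraries lay close together, and in vivo replicate 3 was nearest to them. The log2 fold change was −0.66 ± 0.31 (SE, edgeR adjusted p = 0.517). As for H2ax, the 2 highest libraries were in vivo replicates 1 and 2, those with the lowest 18S share, whose part in the result was not tested. Polb (chr8:22628119-22653464, minus strand), the polymerase that fills the gap, was at 19.0, 23.3 and 19.9 CPM in vitro and at 23.4, 33.5 and 25.6 CPM in vivo (log2 fold change −0.41 ± 0.41, edgeR adjusted p = 0.780). The highest in vitro and the lowest in vivo library nearly touched. Ung, which removes uracil, averaged 52.9 ± 17.1 CPM in vitro and 84.4 ± 26.5 CPM in vivo (SD, n = 3 each), with overlapping groups. Xrcc1, the scaffold of the last steps, had a log2 fold change of 0.61 ± 0.54 and Lig3, the ligase it binds, one of −0.36 ± 0.52. Lig3 ranged over 12.3 to 50.6 CPM in vitro and 31.5 to 47.9 CPM in vivo. Ogg1, which removes oxidised guanine, had 22, 32 and 0 counts in vitro and 27, 75 and 0 counts in vivo, and 17.4% of its exon bases overlap the antisense gene Camk1.

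Levels of different genes were compared as RPKM, which scales counts to exon length and the TMM-scaled library total. Apex1 was highest in both groups, at 78.1 ± 4.52 RPKM in vitro and 123 ± 31.1 RPKM in vivo (SD, n = 3 each). H2ax followed at 48.8 ± 10.3 RPKM in vitro and 114 ± 54.5 RPKM in vivo, then Ung at 18.8 ± 6.08 RPKM in vitro and 30.0 ± 9.43 RPKM in vivo. Msh6 came next at 17.6 ± 4.42 RPKM in vitro and 18.1 ± 2.02 RPKM in vivo. Fanca was lowest in vitro (0.409 ± 0.354 RPKM) and Fanci lowest in vivo (0.490 ± 0.250 RPKM). Of the 31 pairs of neighbours in the order of levels, 2 did not overlap in each group: Apex1 and H2ax, and H2ax and Ung, in vitro, and H2ax and Ung, and Msh6 and Polb, in vivo. All other neighbours could not be ordered beyond their spread.

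**Figure D3:**
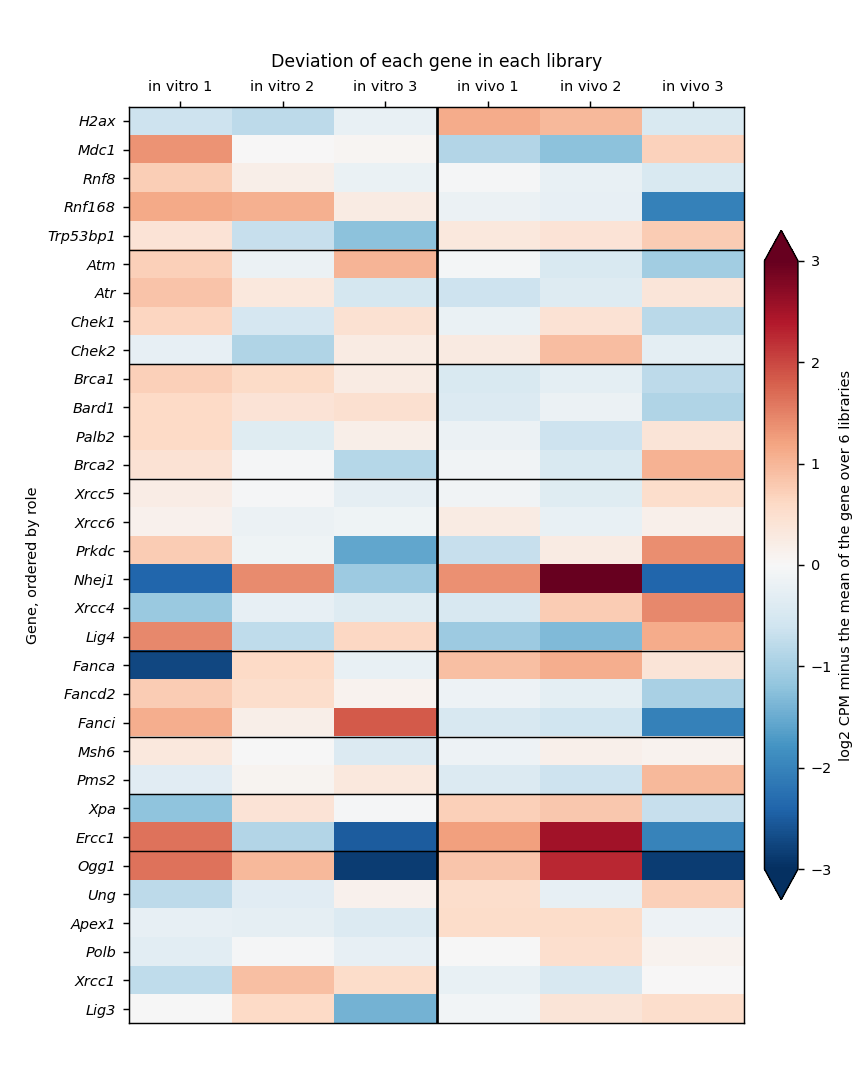
Deviation of each gene in each library from its mean over 6 libraries, in log2 CPM (colour), with in vitro libraries left of in vivo libraries and genes ordered by role. Nhej1 reaches 3.09 in in vivo replicate 2, Ogg1 −2.84 in replicate 3 of both groups and Fanca −2.74 in in vitro replicate 1. Rnf168, Brca1, Bard1, Fancd2 and Fanci are above their mean (red) in all in vitro and below it (blue) in all in vivo columns.

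The median within-group standard deviation of log2 CPM was 0.631 over the 32 genes, against 0.801 over all tested genes, and this was not tested. No library was high or low for every gene. The median deviation of the 32 genes from their means over 6 libraries was 0.43 on the log2 scale in in vitro replicate 1. It was −0.19 to 0.059 in the other libraries. Over all tested genes the median in in vitro replicate 1 was −0.012. In vitro replicate 1 was the highest library for 11 of the 32 genes and the lowest for 7, and in vivo replicate 3 was the highest for 7 and the lowest for 8. The summed level of the 32 genes was 883, 750 and 727 CPM in vitro and 940, 936 and 876 CPM in vivo. This sum leans on Apex1 and H2ax, the 2 genes with the highest mean CPM in vivo, and does not describe the whole set. Their group means were 102 and 66.5 CPM in vitro and 161 and 155 CPM in vivo. Of the 32 log2 fold changes, 13 were positive and 19 negative.

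Ratios of genes whose products work together do not depend on the scaling of a library. They were computed per kilobase within each library for 10 pairs chosen after the values were seen. An exact two-sided permutation test compared the groups, and its smallest possible p is 0.1. That p is reached whenever the groups do not overlap, so it only restates the lack of overlap. With pairs chosen after the values were seen, neither the p nor its adjustment can decide whether a ratio differs between the groups. The Brca1 to Bard1 ratio stayed between 1.31 and 1.73 in the 6 libraries. The Chek1 to Chek2 ratio was 3.62, 2.63 and 2.28 in vitro and 1.41, 1.38 and 1.38 in vivo, and every in vitro library was higher (exact permutation p = 0.1, adjusted p = 0.5 over the 10 pairs). The Rnf168 to Rnf8 ratio was 0.719, 1.02 and 0.758 in vitro and 0.499, 0.544 and 0.179 in vivo, with the same exact permutation p and adjusted p. The groups overlapped in the other 8 pairs. How often the groups separate in pairs of other genes was not computed, so these separations are no result about the pairs. The H2ax to Mdc1 ratio was 7.22, 16.6 and 23.5 in vitro and 116, 134 and 13.1 in vivo, with in vivo replicate 3 apart from its group.

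**Figure D4:**
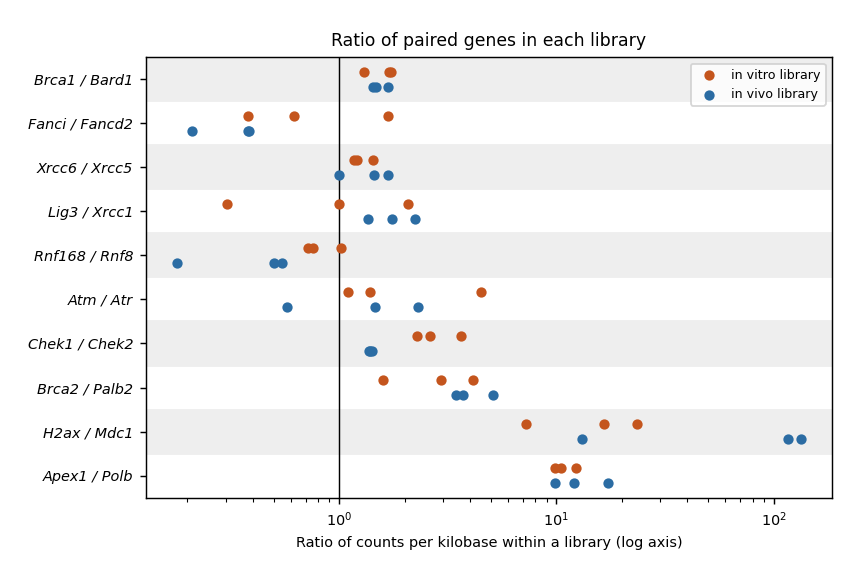
Ratio of counts per kilobase of paired genes within each library (log axis), with in vitro libraries above in vivo libraries. Chek1 over Chek2 and Rnf168 over Rnf8 are the pairs whose groups do not overlap, both higher in vitro, and the line marks equal counts per kilobase.

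The same pathways hold 95 further repair genes that were listed by role, of which 90 passed the filter. None of them passed edgeR's test with adjustment over all genes, and 5 (5.56%) had an unadjusted p below 0.05, against 10.2% of all tested genes. The groups did not overlap in 6 of the 90 (6.67%), against 19.3% of all tested genes. Of these 6, 1 (Lig1) was higher and 5 (Gtf2h5, Ddb2, Aptx, Parp1 and Xpc) were lower in vitro. Both shares are below those of all tested genes, so the separated genes are no result about repair genes. Of the log2 fold changes, 47 were positive and 43 negative (median 0.06). Among 13 other checkpoint genes, 8 were positive and 5 negative. Etaa1, an activator of ATR, was at 47.8, 10.1 and 59.1 CPM in vitro and at 14.7, 14.7 and 3.52 CPM in vivo (log2 fold change 1.83 ± 0.75, edgeR adjusted p = 0.464), with in vitro replicate 2 inside the in vivo range. Among 27 other genes of double-strand break repair, 16 were positive and 11 negative. Of 12 other Fanconi anaemia genes 8 were positive, and of 5 other mismatch repair genes 4 were.

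Among 18 other genes of nucleotide excision repair, 6 log2 fold changes were positive and 12 negative. Gtf2h5, a subunit of the repair and transcription factor TFIIH, was at 38.8, 52.7 and 42.6 CPM in vitro and at 73.3, 115 and 86.7 CPM in vivo, and was lower in every in vitro library (log2 fold change −1.03 ± 0.33, edgeR adjusted p = 0.396). Ddb2, which finds ultraviolet damage in chromatin, had 0, 4 and 0 counts in vitro and 32, 24 and 48 counts in vivo (edgeR adjusted p = 0.428). Ercc4, the nuclease partner of Ercc1, was at 7.73, 29.7 and 61.8 CPM in vitro and at 5.65, 13.6 and 6.83 CPM in vivo, so its groups overlapped. Among 15 other genes of base excision and single-strand break repair, 5 were positive and 10 negative. Lig1, the replicative ligase, was at 137, 78.8 and 63.4 CPM in vitro and at 47.5, 28.8 and 49.5 CPM in vivo, and was higher in every in vitro library (log2 fold change 1.15 ± 0.41, edgeR adjusted p = 0.415). Aptx, which clears failed ligations, was at 9.66, 4.48 and 1.57 CPM in vitro and at 15.8, 19.7 and 12.3 CPM in vivo, lower in every in vitro library (log2 fold change −1.61 ± 0.75, edgeR adjusted p = 0.508).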

How the data were processed

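Per the labels' protocols, total RNA was extracted with a microscale kit and made into libraries by a transposase. The values analysed are the raw read counts of each gene and library that the authors deposited. FastQC 0.11.2, DESeq2 and GRCm39 appear in the submitters' processing notes, but all 49589 gene positions compared equal RefSeq on GRCm38.p6, so coordinates are given on that build. The sources used here name no aligner, counter or strand setting, so reads of overlapping antisense genes cannot be told apart.

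Counts were tested in R 4.3.3 with edgeR 4.0.16 (filter on low counts by group, scaling by trimmed mean of M values (TMM), two-sided quasi-likelihood F-test, robust and in the legacy form, Benjamini-Hochberg adjustment over 14301 genes, threshold 0.05). The common biological coefficient of variation was 0.727. DESeq2 1.42.0 and limma 3.58.1 (voom with quality weights) were run beside it. CPM used TMM-scaled totals, and a count of 0 allows up to 0.216 to 0.527 CPM (3 counts, counting error only). Groups and replicate numbers came from the titles. The numbers do not pair the libraries. The scripts were tested on simulated data. Alternatives were other scalings, filters and tools, ribosomal RNA genes left out, a replicate block and each library left out.

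The 32 genes, the gene lists and the tests were chosen with earlier results of these data known. Genes were given library by library where the unadjusted p was below 0.05, where the groups did not overlap, where the p was smallest in a role or where the level was highest or lowest, and of each further list among the 3 genes of smallest p. The other genes were to be given by counts, ranges or log2 fold change. Library values of Mdc1, Rnf8, Trp53bp1, Brca2, Xrcc6, Nhej1, Msh6 and Ogg1 and group means of Atr, Chek1, Chek2, Palb2, Xrcc5, Prkdc, Lig4, Xpa and Ung go beyond this rule and were chosen after they were seen.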

Additional observations from a re-analysis of the deposited data

How the results depend on the processing

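None of the 32 genes and none of the further repair genes tested was called under any alternative run. Over all genes, 391 were called with no filter on low counts, 459 by DESeq2, 102 by limma-voom and 3 by edgeR's newer quasi-likelihood form, which was added after the data were seen, against 0 in the reported fit; the cause was not tested. The 4 genes at an unadjusted p below 0.05 became 2 with library totals alone (H2ax and Apex1, against 8.41% of all tested genes). They became 0 to 3 when a library was left out (against 5.61% to 14.2%), with 0 without in vivo replicate 2. With DESeq2 they became 6 (H2ax, Rnf168, Atm, Brca1, Bard1 and Fanci), against 9.71% of all genes in that run. With limma-voom they became 6 (H2ax, Mdc1, Rnf168, Brca1, Fanci and Apex1), against 19.3%. Without a filter on low counts they became 3 (H2ax, Rnf168 and Fanci), against 10.4%. Same-numbered libraries did not deviate together (correlations −0.0986, 0.096 and −0.0443), and with the replicate number as a block 1 gene (Rnf168) was at an unadjusted p below 0.05, against 8.12% of all tested genes, and 0 genes were called. The 7 genes whose groups did not overlap became 5 with library totals alone (15.6%, against 16.2% of all tested genes) and 9 to 14 when a library was left out. There were 14 without in vivo replicate 3 (43.8%, against 37.6%) and 9 or 10 without each other library (28.1% or 31.2%, against 24.1% to 33.6%). Of the 32 genes, 23 kept their direction under every alternative they could be fitted in and 9 did not. With library totals alone, Chek1 was −0.048 and Palb2 −0.018 on the log2 scale. With limma-voom, Chek1 was −0.038, Brca2 0.15, Xrcc5 0.20 and Pms2 0.50, and with the replicate block Pms2 was 0.049. With 1 library left out, log2 fold changes ranged from −0.69 to 0.22 for Brca2, −0.27 to 0.23 for Xrcc5, −1.26 to 0.12 for Prkdc, −0.24 to 0.12 for Msh6, −0.40 to 0.58 for Pms2, −1.16 to 0.94 for Ogg1 and −0.87 to 0.034 for Lig3. Nhej1, Lig4, Ercc1 and Ogg1 were not tested under the stricter filter. A count of 0 allows up to 0.216 to 0.527 CPM. In vivo replicate 3, with 17643429 counts, had 0, 1 and 0 counts of Nhej1, Ercc1 and Ogg1, while in vivo replicate 2, with 10240704 counts, had 99, 70 and 75.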

Other observations

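Nhej1, Ercc1 and Ogg1 each had at most 2 counts in both in vitro replicate 3 and in vivo replicate 3, a pattern chosen after the values were seen. It held for 3 of the 32 genes (9.38%), against 380 of all tested genes (2.66%). All 3 genes had their highest CPM in in vivo replicate 2, as did 93 of the 380.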
